A study of Mus musculus with 3 samples.

Results

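Chemokines are small secreted proteins that steer moving cells, and they act through receptors of the heptahelical, G-protein-coupled class. The genes described here were chosen by name and biotype. Their symbols begin with Cx3c, or with Ccl or Cxcl and a number, or are Ccr, Cxcr or Ackr receptor symbols. All are protein-coding genes. They numbered 61 of 39179 genes in the table, 40 of them ligands and 21 receptors, and 32 had a mean value of 10 or more over the 3 libraries. Only these 32 count as measured below, with 21 ligands and 11 receptors among them. RNA came from an engineered line of mouse embryonic stem cells with an eGFP reporter for Cntn2 (contactin 2, used as a Purkinje fibre marker) and mCherry, delivered by lentivirus, under control of the Myh6 promoter (Myh6 encodes a heart muscle myosin). All cells had been differentiated in culture and given sodium nitroprusside, a nitric oxide donor, at day 4, and they were sorted at day 25 by fluorescence. GFP denotes the eGFP-positive cells with dim mCherry, MHC the mCherry-positive cells and NEG the cells negative for both reporters. With 1 library for each population, differences could not be set against a spread between replicates, and no p-values were computed. Since every population carried both reporters and received the same treatment, nothing here measures an effect of either.

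Values are read counts per gene divided by a size factor per library. Whole reads recovered from them summed to between 47289405 and 52826956 per library. A gene counted as higher or lower when it differed at least 2-fold on the log2(value + 1) scale and reached 20 in the higher library. This rule sorts genes by size and tests nothing. Folds are ratios of the values, with exact 95% intervals (Clopper-Pearson) that cover counting error only. The reporter genes followed their labels, with Cntn2 at 10045 in GFP against 228 and 204 in MHC and NEG, and Myh6 at 186924 in MHC against 4694 and 3843 in GFP and NEG. Of the fixed Purkinje markers, 3 of 6 were higher and 3 lower in GFP than in MHC, and all 6 heart muscle markers were lower. The sort genes Cntn2 and Myh6 are counted in these lists, so their direction follows from the sort. All 8 mesothelial and epicardial markers were higher in GFP than in both other libraries.

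Chemokine ligands are sorted into CXC, CC and CX3C families by the spacing of their first cysteines. Many of the inflammatory ones are induced through NF-kB and draw neutrophils (Cxcl1, Cxcl2, Cxcl5) or monocytes (Ccl2, Ccl7, Ccl8), whereas homeostatic ones such as Cxcl12, Ccl19 and Ccl21 guide progenitor cells and lymphocytes. In the developing heart, Cxcl12 and its receptors are best known for their part in coronary vessel growth. The atypical receptors (Ackr) bind and remove chemokines without G-protein signalling.

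The promoters of 5 ligand genes are printed first, as examples. They include a neutrophil chemokine pair that differed between libraries in opposite ways (Cxcl1 and Cxcl2) and a gene read almost only in GFP (Ccl20). The others are Cxcl10, an interferon and NF-kB target 1.99-fold higher in GFP than in MHC, and Cxcl12, the most abundant homeostatic ligand. Each window is from RefSeq (build GRCm38.p6), 300 bases long, ending 50 bases after the start site and written in the gene's own direction. They lie at chr5:90890995-90891294 (plus strand), chr5:90903649-90903948 (plus strand), chr1:83116516-83116815 (plus strand), chr5:92348840-92349139 (minus strand) and chr6:117168285-117168584 (plus strand). Capitals mark matches to the NF-kB consensus on either strand.
Cxcl1: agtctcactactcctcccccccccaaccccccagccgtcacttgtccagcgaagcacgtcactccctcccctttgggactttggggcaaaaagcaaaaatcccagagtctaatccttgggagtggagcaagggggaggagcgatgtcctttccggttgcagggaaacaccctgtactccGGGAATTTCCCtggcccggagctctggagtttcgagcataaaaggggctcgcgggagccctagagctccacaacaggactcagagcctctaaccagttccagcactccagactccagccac
Cxcl2: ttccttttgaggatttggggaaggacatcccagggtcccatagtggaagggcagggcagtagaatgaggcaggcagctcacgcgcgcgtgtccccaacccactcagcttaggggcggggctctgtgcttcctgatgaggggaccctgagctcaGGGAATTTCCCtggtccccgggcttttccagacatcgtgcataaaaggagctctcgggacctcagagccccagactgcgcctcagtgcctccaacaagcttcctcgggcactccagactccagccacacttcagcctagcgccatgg
Ccl20: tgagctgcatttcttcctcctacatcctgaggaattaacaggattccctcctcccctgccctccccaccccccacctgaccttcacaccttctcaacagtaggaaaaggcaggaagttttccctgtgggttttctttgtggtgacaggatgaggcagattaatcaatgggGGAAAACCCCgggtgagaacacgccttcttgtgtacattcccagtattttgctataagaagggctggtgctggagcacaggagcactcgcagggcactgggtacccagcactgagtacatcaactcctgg
Cxcl10: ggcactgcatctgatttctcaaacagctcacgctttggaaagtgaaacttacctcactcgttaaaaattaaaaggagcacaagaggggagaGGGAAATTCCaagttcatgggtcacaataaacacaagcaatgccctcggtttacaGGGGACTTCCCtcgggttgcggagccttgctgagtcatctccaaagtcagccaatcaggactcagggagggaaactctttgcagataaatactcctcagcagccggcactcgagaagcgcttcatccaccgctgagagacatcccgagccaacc
Cxcl12: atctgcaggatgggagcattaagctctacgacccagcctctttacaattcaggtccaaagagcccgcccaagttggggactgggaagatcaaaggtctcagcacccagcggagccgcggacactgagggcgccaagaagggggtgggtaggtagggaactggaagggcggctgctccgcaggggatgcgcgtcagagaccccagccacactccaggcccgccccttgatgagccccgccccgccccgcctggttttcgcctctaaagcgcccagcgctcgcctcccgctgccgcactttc

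Cxcl1 and Cxcl2 held the same run, GGGAATTTCCC, which starts 71 bases before the start site in Cxcl1 and 97 bases before it in Cxcl2, and which matches on both strands in overlapping frames. Ccl20 had a match 80 bases upstream, and Cxcl10 had matches beginning 159, 104 and 103 bases upstream, the last of these overlapping each other. No match lay in the Cxcl12 window, nor in the windows of Cx3cl1, Cxcl13 and Ccl8, which are not printed although these genes also differed between GFP and MHC. Of all 32851 RefSeq windows of this length, 8.46% held a match. Counted per gene, where any window of a gene may match, 2581 of 27025 genes (9.55%) and 5 of the 23 measured member symbols with a window held one, the fifth being Ccl27a. Among members higher in GFP than in MHC, 4 of 8 had a window and 2 of these (Cxcl1 and Ccl20) held a match. Among those lower in GFP, 6 of 7 had a window and 1 (Cxcl2) held a match. The window listed for Ccl21b (chr4:42172870-42173169) does not reach the start of the Ccl21b entry measured here (chr4:42255767-42256432). It is still counted among the 6 and the 23 above. Ccl2, Ccl7, Ccr10, Ccr7, Cxcl16, Cxcl5 and Cxcr5 had no entry. A match is a description of the letters and was not tested as a binding site.

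The ligands differed between GFP and the other cells in both directions. By the rule of size, 10 of 11 measured receptors were neither higher nor lower in GFP than in MHC. Cxcr3 is among these 10, although it was 3.14-fold (1.18 to 9.73) higher in MHC. Its higher value, 17.2, did not reach the minimum of the rule. Nor did any value of Ccr7 (15.5 in GFP, 16.2 in MHC and 7.91 in NEG). The rule could therefore call neither Cxcr3 nor Ccr7 in any pair. Of the 11 receptors, however, 6 share reads with overlapping genes, and the ratios of these 6 may be those of the other genes. Of the 32 measured members, 8 were higher in GFP than in MHC (25.0%, against 15.6% of 16036 protein-coding genes with a mean of 10 or more) and 7 were lower (21.9%, against 15.6%). All 8 higher members were ligands: Cxcl1, Cxcl5, Cxcl13, Cxcl16, Ccl2, Ccl7, Ccl8 and Ccl20. Against NEG, 9 members were higher in GFP (28.1%, against 14.4%), namely the same 8 with Cxcl14, and 4 were lower (12.5%, against 13.6%). Both counts share the GFP library, so they are not separate evidence. Between MHC and NEG, 6 members were higher in MHC (18.8%, against 5.1%) and 2 were lower (6.25%, against 4.61%). The median log2 ratio of the measured members was −0.08 for GFP over MHC, 0.29 for GFP over NEG and 0.42 for MHC over NEG, beside 0.05, 0.04 and −0.01 over all those protein-coding genes. A low-level member can pass the mean of 10 through a single high library, as Ccl8 and Ccl20 did through GFP, so these counts are descriptions only.

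**Figure D1:**
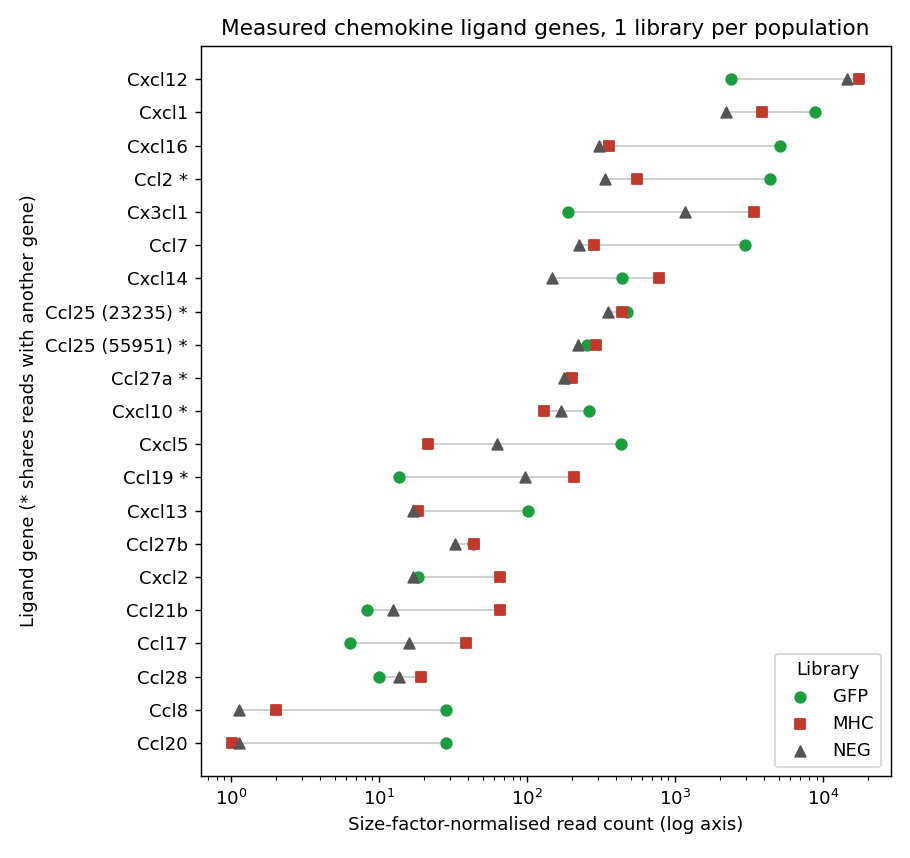
Values of the 21 measured ligand genes in the 3 libraries on a log axis, with genes ordered by their mean and an asterisk for those that share reads with an overlapping gene; numbers in brackets are the last digits of the identifiers of the paired Ccl25 entries. Cxcl16, Ccl2, Ccl7, Cxcl5, Cxcl13, Ccl8 and Ccl20 stand out to the right in GFP, and Cxcl12, Cx3cl1 and Ccl19 to the left.

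Among ligands of neutrophil receptors, Cxcl1 was the most abundant. Cxcl1 (ENSMUSG00000029380, chr5:90891241-90893115, mm10) had a value of 8826 in GFP, with 3849 in MHC and 2199 in NEG. GFP thus exceeded MHC by 2.29-fold (95% interval 2.21 to 2.38) and NEG by 4.01-fold (3.82 to 4.22). Its neighbour Cxcl5 (ENSMUSG00000029371, chr5:90759299-90761625) had a value of 431 in GFP, with 21.3 in MHC and 62.1 in NEG. GFP was 20.2-fold (13.1 to 33.0) above MHC, the highest log2 ratio of any measured member. Cxcl5 was also the sole ligand lower in MHC than in NEG by the rule of size (2.92-fold, 1.74 to 5.08). Cxcl2 (ENSMUSG00000058427, chr5:90903899-90905909), which shares the promoter run printed above with Cxcl1, did not follow it. Its value was 18.3 in GFP, with 65.8 in MHC and 16.9 in NEG, 3.60-fold (2.15 to 6.28) higher in MHC than in GFP. Cxcl3 and Cxcl15, from the same stretch of the chromosome, had values between 0.914 and 6.08 in all libraries.

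The monocyte chemokines Ccl2 and Ccl7 were both many-fold higher in GFP than in the other libraries. Ccl2 (ENSMUSG00000035385, chr11:82035571-82037453), the main ligand of Ccr2, had a value of 4387 in GFP, with 554 in MHC and 337 in NEG. The difference was 7.92-fold (7.25 to 8.67) over MHC and 13.0-fold (11.6 to 14.7) over NEG. An overlapping gene, Gm17268, spans Ccl2 entirely and had a value of 4391 in GFP and the same values as Ccl2 in MHC and NEG, so only 4.57 of its GFP value lay outside Ccl2. Ccl7 (ENSMUSG00000035373, chr11:82045712-82047525), a relative with a wider choice of receptors, had a value of 2962 in GFP, with 285 in MHC and 223 in NEG, which is 10.4-fold (9.21 to 11.8) and 13.3-fold (11.5 to 15.4) higher in GFP. Ccl8 (chr11:82115185-82116799), further along the same cluster, was read 31 times in GFP, 2 times in MHC and 1 time in NEG. Its ratio of GFP to MHC was 14.0, with an interval of 3.56 to 121.

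Cxcl16 (ENSMUSG00000018920, chr11:70453983-70459984) encodes a membrane-anchored ligand of Cxcr6 that also acts as a scavenger receptor. It had a value of 5096 in GFP, with 359 in MHC and 306 in NEG, 14.2-fold (12.8 to 15.9) higher in GFP than in MHC and 16.6-fold (14.7 to 18.9) higher than in NEG. Zmynd15 overlaps 552 bases of it and had values of 1124, 69.9 and 74.6. With every Zmynd15 read subtracted, Cxcl16 would still stand at 3972 in GFP, with 289 in MHC and 232 in NEG. Cxcl13 (ENSMUSG00000023078, chr5:95956928-95961067), the B-cell attractant, had a value of 101 in GFP, with 18.2 in MHC and 16.9 in NEG and was 5.56-fold (3.36 to 9.73) higher in GFP than in MHC. Ccl20 (ENSMUSG00000026166, chr1:83116766-83119167), the ligand of Ccr6, had 31 reads in GFP and 1 in each other library. The GFP to MHC ratio of 28.0 has an interval of 4.66 to 1140.1, so its size is poorly fixed.

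The homeostatic ligand Cxcl12 and the membrane-bound ligand Cx3cl1 were lowest in GFP. Cxcl12 (ENSMUSG00000061353, chr6:117168535-117181367) had a value of 2398.5 in GFP, with 17463 in MHC and 14374 in NEG. It was 7.28-fold (6.99 to 7.59) higher in MHC and 5.99-fold (5.75 to 6.25) higher in NEG than in GFP, whereas MHC and NEG lay within 2-fold of each other (1.21-fold, 1.19 to 1.24). Cx3cl1 (ENSMUSG00000031778, chr8:94772009-94782423), called fractalkine, had a value of 189 in GFP, with 3387 in MHC and 1170.3 in NEG. Here all libraries were apart, with MHC 17.9-fold (15.6 to 20.7) and NEG 6.19-fold (5.32 to 7.22) above GFP and MHC 2.89-fold (2.70 to 3.11) above NEG. Its log2 ratio of −4.15 for GFP over MHC was the lowest of any measured member.

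The Ccr7 ligands Ccl19 and Ccl21b and the Ccr4 ligand Ccl17 were also lower in GFP than in MHC, at lower levels, and of these Ccl19 alone was lower in GFP than in NEG by the rule of size. Ccl19 (ENSMUSG00000071005, chr4:42754525-42756577), a ligand of Ccr7, had a value of 13.7 in GFP, with 206 in MHC and 97.1 in NEG. MHC was 15.0-fold (8.88 to 27.3) above GFP. Ccl19 lies inside the gene 4930578G10Rik, which had values of 143, 1366 and 601 in the same order of libraries, and it is uncertain how far the reads are its own. Ccl21b, a further Ccr7 ligand, had a value of 8.23 in GFP, with 65.8 in MHC and 12.4 in NEG, 8.003-fold (3.97 to 18.3) higher in MHC than in GFP. Ccl21 and Ccl27 genes have near-identical copies in the mouse genome, and the sources used here do not say how reads matching several copies were counted, so their values are uncertain. Ccl17 (chr8:94810453-94812035), a ligand of Ccr4 near Cx3cl1, had a value of 6.40 in GFP, with 38.5 in MHC and 15.8 in NEG. These are 7, 38 and 14 reads.

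**Figure D2:**
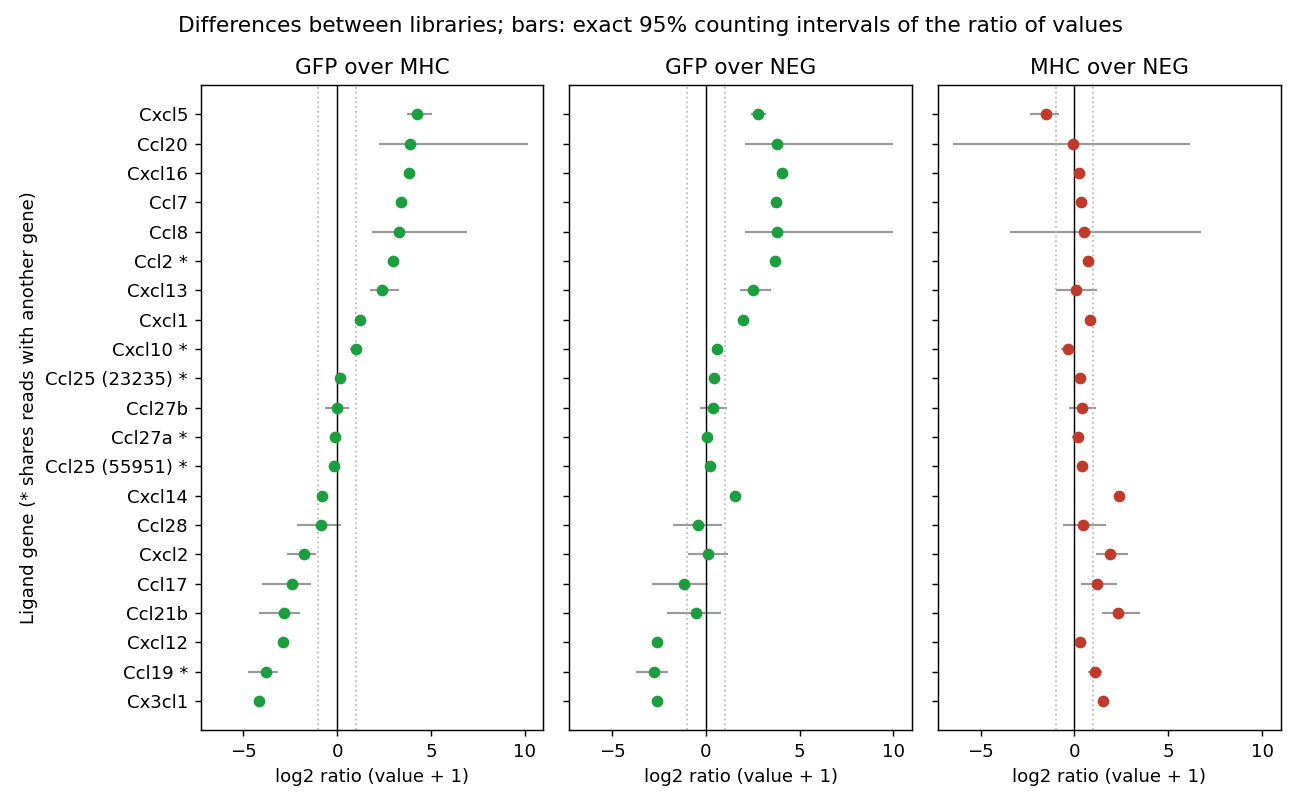
Log2 ratios of value + 1 for the 21 measured ligand genes in the 3 pairs of libraries, ordered by GFP over MHC; bars are exact 95% counting intervals of the ratio of values without the added 1, so points of low genes sit off the middle of their bars, and dotted lines mark 2-fold. Cxcl5, at 4.28, tops the GFP over MHC panel and Cx3cl1, at −4.15, closes it.

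Of the other measured ligands, Cxcl14 split the libraries in its own way. Cxcl14 (ENSMUSG00000021508, chr13:56288647-56296551), a conserved chemokine of epithelia, stood at 439 in GFP, with 775 in MHC and 148 in NEG. NEG was lowest, with MHC 5.24-fold (4.35 to 6.35) and GFP 2.96-fold (2.44 to 3.62) above it, and GFP and MHC within 2-fold of each other. Cxcl10 (chr5:92346638-92348889), an attractant of activated T cells, had a value of 260 in GFP, with 131 in MHC and 168 in NEG. It is nested in Art3, which outside Cxcl10 had 45.7 in GFP, with 1121 in MHC and 341 in NEG, so the host ran in the opposite order. The ratio of GFP to MHC for Cxcl10 was 1.99 (1.61 to 2.47) and passed 2-fold when libraries were scaled by their total reads (log2 1.15). The epithelial ligands Ccl27a (176 to 201 over the libraries), Ccl27b (32.8 to 43.6) and Ccl28 (10.1 to 19.2) and the thymic and gut ligand Ccl25 lay within 2-fold in every pair. Ccl25 has 2 overlapping entries in the table, with values of 351 to 475 and 220 to 291. Ccl27a is marked as sharing reads because it overlaps the abundant gene Il11ra1, although by 8 bases.

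Members that lie close together on a chromosome did not share a pattern throughout. In the chromosome 11 cluster from Ccl2 to Ccl1, Ccl2, Ccl7 and Ccl8 were higher in GFP than in both other libraries, while Ccl11 had 0 reads in all libraries, Ccl12 had values of 1.83 in GFP and 0 elsewhere, and Ccl1 ranged from 4.57 to 11.3. A count of 0 allows a value of up to 2.74 in GFP, with 3.04 in MHC and 3.39 in NEG, set as 3 reads. Further along chromosome 11, Ccl5, Ccl9, Ccl6, Ccl3 and Ccl4 all stayed under 12 in every library. On chromosome 5, Cxcl5 and Cxcl1 were higher in GFP than in MHC, and Cxcl2, next to Cxcl1, was lower. On chromosome 8, Cx3cl1 and Ccl17 were both higher in MHC than in GFP and NEG, and Ccl22 beside them had values of 1.83 in GFP, with 9.12 in MHC and 4.52 in NEG.

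Levels between genes can be compared only per length, here as the value per kilobase of annotated exon (GENCODE M21, all isoforms joined). This scale is approximate, since a value can hold reads of other genes in the same span. The M21 annotation also differs from that of the deposited values, with 2068 exon bases for Cxcl2 against a span of 2011. On that scale the leading ligands of GFP were Cxcl1 with 4707, Ccl2 with 3855, Ccl7 with 3697 and Cxcl16 with 1687, and Cxcl12 had 293. In MHC the order began with Cxcl12 at 2136 and Cxcl1 at 2053, followed by Cx3cl1 at 862 and Ccl2 at 487. In NEG it began with Cxcl12 at 1758 and Cxcl1 at 1173, with Cx3cl1 at 298, Ccl2 at 296 and Ccl7 at 278. The last of these are close, and without replicates their order is not fixed.

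Among the receptors, the atypical receptor Ackr3 had the highest level of those whose reads are their own. Ackr3 (ENSMUSG00000044337, chr1:90203980-90216751), a scavenger of Cxcl12 formerly called Cxcr7, had a value of 3282 in GFP, with 1820.2 in MHC and 4125 in NEG. It was 2.27-fold (2.14 to 2.40) higher in NEG than in MHC, and 1.80-fold (1.70 to 1.91) higher in GFP than in MHC, which exceeded 2-fold when libraries were scaled by total reads (log2 1.02). Its signalling partner for the same ligand, Cxcr4 (chr1:128588199-128592293), was at 18.3 in GFP, with 31.4 in MHC and 16.9 in NEG, or 20, 31 and 15 reads. Per kilobase of exon, Ackr3 had 980 in GFP, with 544 in MHC and 1232 in NEG, and Cxcr4 had 10.1, 17.4 and 9.37. Ackr4, a scavenger of Ccl19, Ccl21 and Ccl25, has 2 entries with values of 456 to 536 and 528 to 641. Both lie inside Acad11, whose values were 3324 to 4708, and are uncertain. Ackr2, a scavenger of inflammatory CC ligands, missed the mean of 10 but had 18 reads in NEG (a value of 20.3) and 2 reads in each other library.

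**Figure D3:**
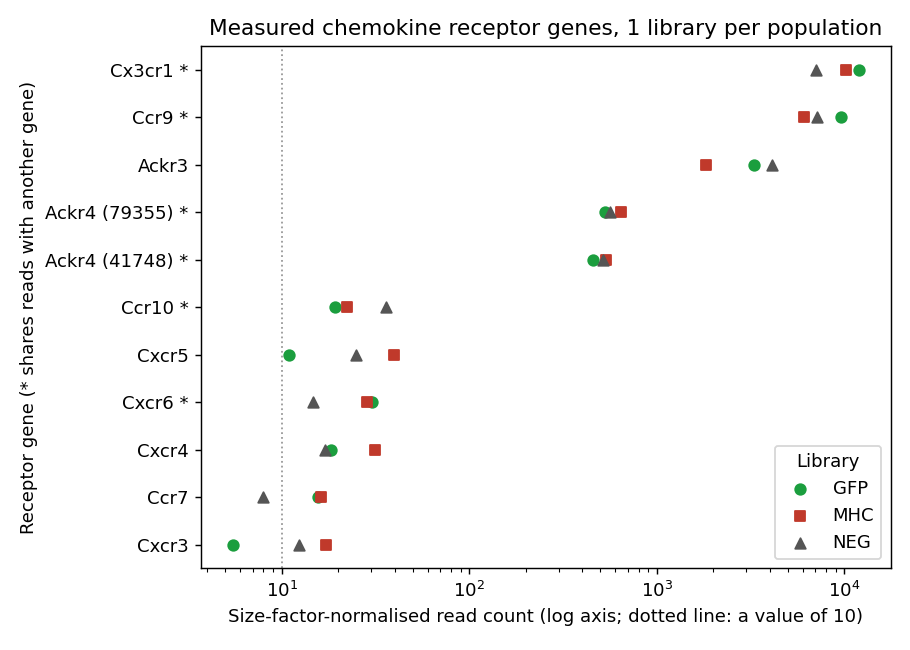
Values of the 11 measured chemokine receptor genes in the 3 libraries on a log axis, ordered by mean, with a dotted line at a value of 10, an asterisk for genes that share reads with another gene, and the last digits of the identifiers for the paired Ackr4 entries. Of the genes above 100, Ackr3 alone carries no asterisk.

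Apart from Cx3cr1 and Ccr9, described last, the signalling receptors of these ligands were low in all libraries. Ccr2, the receptor of Ccl2 and Ccl7, had 0 reads in GFP and NEG and 1 in MHC. Cxcr2, which binds Cxcl1, Cxcl2 and Cxcl5, had a value of 6.40 in GFP, with 3.04 in MHC and 7.91 in NEG, and Cxcr1 had 5.48, 2.03 and 6.78. Ccr6, the receptor of Ccl20, ranged from 1.13 to 5.06. Ccr1 had 1 read in MHC and 0 elsewhere. Cxcr5, the receptor of Cxcl13, had a value of 10.97 in GFP, with 39.5 in MHC and 24.9 in NEG. By the rule of size, Cxcr5 was the only measured receptor lower in GFP than in MHC (3.60-fold, 1.85 to 7.56, from 12 and 39 reads). It was 2.27-fold (1.07 to 5.02) lower in GFP than in NEG, a difference that fell within 2-fold with a pseudocount of 10 (log2 −0.73) or scaling by total reads (log2 −0.96). Cxcr3, which binds Cxcl10, had 5.48 in GFP, with 17.2 in MHC and 12.4 in NEG, and Ccr7 had 15.5, 16.2 and 7.91. Cxcr6 (14.7 to 30.2) and Ccr10 (19.2 to 36.1) lie inside Fyco1 and Cntnap1, whose values were at least 3153 and 417 in every library, and are uncertain. Some receptors under the mean of 10 were highest in GFP, with Ccr3 at 11 reads there and 0 elsewhere and Ccr4 at 19 reads against 1 in MHC and 7 in NEG.

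Of the 29 members under a mean of 10, 4 had 0 reads in every library (Ccl11 and 3 entries of Ccl21c) and 9 reached 10 in at least 1 library. Among these are Ackr2, Ccr3, Ccr4, Ccl1, Ccl4, Ccl9, Ccl21a and Ccl24. Ccl24, an eosinophil attractant, had 17 reads in GFP against 5 in MHC and 4 in NEG. The limit fell between Ccl20 and Ccl8, with means of 10.2 and 10.5, and Ccl21a and Ccr4, with means of 8.81 and 8.76. The remaining low members, among them the Cxcr3 ligand Cxcl9 and the receptor Ccr8, had values of at most 9.12 in any library.

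The largest receptor values in the table, those of Cx3cr1 and Ccr9, belong to gene spans of 166668 and 105019 bases that contain other expressed genes. Cx3cr1, the fractalkine receptor (ENSMUSG00000052336, chr9:119901616-120068283), had a value of 11987 in GFP, with 10148 in MHC and 7056 in NEG. Within its span lie Gorasp1, Ttc21a, Csrnp1 and Xirp1, which together had 9864 in GFP, with 7816 in MHC and 5018 in NEG. What was left was 2123 in GFP, with 2333 in MHC and 2038 in NEG, less than the values of Wdr48 (2337, 2673 and 2436), which covers the far end of the span. The reads of the 5 overlapping genes thus sum to more than those of Cx3cr1 in each library, and how much of its value is the receptor's own cannot be told apart. Csrnp1, an immediate-early nuclear factor gene, alone had 7759 in GFP, 4534 in MHC and 2761 in NEG. Ccr9 (ENSMUSG00000029530, chr9:123678439-123783457), the gut-homing receptor of Ccl25, had a value of 9581 in GFP, with 6062 in MHC and 7169 in NEG. The pseudogene Gm10052, 963 bases long, held 72.1% of its mean, and the noncoding gene Gm17200, which reaches into the span, had 93.9% of it. Overlapping genes sum to 17673, 11928 and 13603, above Ccr9 in each library.

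**Figure D4:**
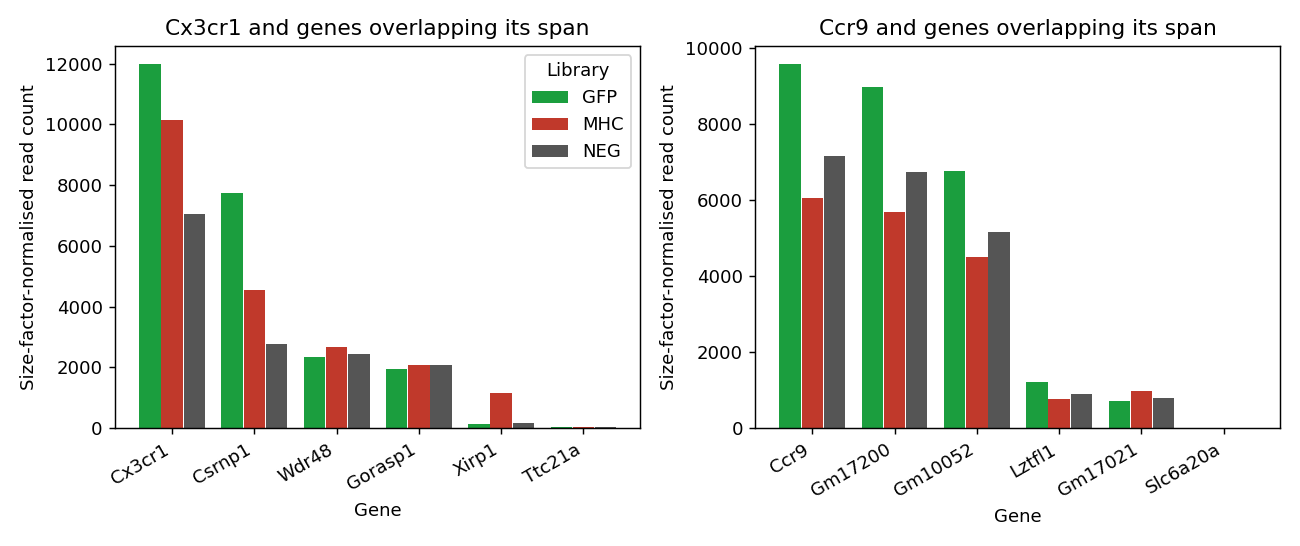
Values of Cx3cr1 (left) and Ccr9 (right) beside the 5 overlapping genes with the most reads, as bars from 0 for the 3 libraries. Csrnp1 and Gm10052 follow the same order of libraries as the receptor whose span holds them.

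Genes around the chemokine system, taken from fixed lists, were also compared. Of 22 measured inducers and shared targets of NF-kB and interferon, 9 were higher in GFP than in MHC, 3 were lower and 10 lay within 2-fold (median log2 0.79, beside 0.05 over all protein-coding genes). Counts of this and the following lists stand beside 15.6% higher and 15.6% lower over all protein-coding genes with a mean of 10 or more. Lif, a cytokine of the interleukin 6 family, had a value of 1353 in GFP, with 163 in MHC and 101 in NEG and was 8.30-fold (7.05 to 9.82) higher in GFP than in MHC. Il33, an alarmin, was at 1492, 271 and 506, and Tnf had 25 reads in GFP, with 4 in MHC and 9 in NEG. The lower genes were the interferon regulator Irf1, with 1363 in GFP, with 5024 in MHC and 2691 in NEG, the interferon receptor gene Ifngr1 with 825, 2010 and 1748, and the interleukin 1 receptor gene Il1r1 with 519, 1104 and 1023. Il1b had no more than 2 reads in any library, and the NF-kB subunit genes split. Rela (2764, 2992 and 2680 in GFP, MHC and NEG) and Nfkb1 (3552, 3284 and 3341) lay within 2-fold, while Relb (1985, 793 and 676) was 2.50-fold (2.31 to 2.72) and Nfkb2 (5652, 1712 and 1449), whose reads are partly shared with an overlapping gene, 3.30-fold (3.13 to 3.49) higher in GFP than in MHC. Against NEG, 11 of the 22 were higher in GFP and 1 was lower, beside 14.4% and 13.6% over all those genes.

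Of 21 measured genes of receptor signalling, 3 were higher in GFP than in MHC, 5 were lower and 13 lay within 2-fold (median log2 −0.11). Ptk2b, a calcium-activated tyrosine kinase, had a value of 4758 in GFP, with 441 in MHC and 302 in NEG, 10.8-fold (9.79 to 11.9) higher in GFP than in MHC. The exchange factor gene Vav1 (99.6, 24.3 and 13.6) and the arrestin gene Arrb2 (602, 224 and 280) were the others higher. Among the lower, Adrbk2, a receptor kinase, had 101 in GFP, with 606 in MHC and 402 in NEG, Elmo1, which acts with Dock proteins on Rac, had 141, 695 and 804, and the arrestin gene Arrb1 had 154, 646 and 641. The G-protein subunit genes Gnai1, Gnai2, Gnai3, Gnb1 and Gnb2 lay within 2-fold in that pair. Of 5 genes that cut or present chemokines, Dpp4, a peptidase that trims Cxcl12 and other ligands, had 2323 in GFP, with 83.1 in MHC and 191 in NEG. Its value is uncertain, since another gene overlaps it. Adam10, a sheddase of Cx3cl1 and Cxcl16, was 2.13-fold (2.04 to 2.23) higher in GFP than in MHC, and the other 3 lay within 2-fold.

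Chemokine genes and partners outside the naming rule went both ways, with 2 of 6 measured higher in GFP than in MHC, 3 lower and 1 within 2-fold. Cd74, a receptor of Mif, had a value of 1898.5 in GFP, with 81.0 in MHC and 308 in NEG, 23.4-fold (18.7 to 29.7) higher in GFP than in MHC. Mif itself was at 2531, 10057 and 10892, lowest in GFP. Cmklr1, the receptor of chemerin, had 30.2 in GFP, with 550 in MHC and 918 in NEG, and Rarres2, which encodes chemerin and shares reads with another gene, had 1005, 3555 and 1579. Xcr1, the receptor of the C-family chemokine Xcl1, had 62.2, 18.2 and 40.7.

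Marker lists of other cell types differed between the libraries too. The 8 mesothelial and epicardial markers summed to 158561 in GFP, with 5694 in MHC and 5566 in NEG. The 13 macrophage and leukocyte markers summed to 3409 in GFP, with 2321 in MHC and 1713 in NEG, and of the 7 measured, 4 were higher in GFP than in MHC, 1 was lower and 2 lay within 2-fold. The lower one was Itga2b (63.1, 212 and 194), and Itgam (262, 400.1 and 427) and Lyz2 (742, 821 and 463) were not higher in GFP than in MHC. Among the defining ones, the pan-leukocyte gene Ptprc had 10.1 in GFP, with 4.05 in MHC and 3.39 in NEG. The macrophage gene Emr1 had 96.9, 14.2 and 3.39, and the myeloid factor gene Spi1 had 8.23, 4.05 and 2.26. Fcgr1, also a macrophage gene, was highest in NEG (4.57, 3.04 and 13.6). Ptprc, Spi1 and Fcgr1 were under the mean of 10. The T-cell gene Cd3e, at 0 in NEG, was the only one of the list at 0 in any library. The 7 smooth muscle and pericyte markers summed to 6214 in GFP, with 66768 in MHC and 91809 in NEG. All 7 were lower in GFP than in both other libraries. Of 7 fibroblast markers, 5 were lower in GFP than in MHC and 2 were higher. The higher ones were Pdgfra (35383, 11080 and 9525) and Dcn (144191, 67849 and 62072). Endothelial markers summed to 1889, 3285 and 2260, and of the 5 measured, 2 were higher in GFP than in MHC, 2 were lower and 1 lay within 2-fold. Tek (504, 225 and 277) and the uncertain Egfl7 (1231, 582 and 569) were higher in GFP, Flt1 (40.2, 2370 and 1174) and Pecam1 (15.5, 34.4 and 33.9) were lower, and Cdh5 was at 5.48, 9.12 and 9.04. Lymphatic endothelial markers summed to 9185, 2258 and 2249, of which Pdpn, also a mesothelial gene, made up 9005 in GFP. Prox1 of the same list was lower in GFP than in MHC (74.0, 434 and 29.4). The part of any of these cell types in the chemokine levels was not tested. In these sorted bulk populations, fewer cells of a type and less RNA per cell cannot be told apart.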

How the data were processed

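RNA from 3 sorted cell populations, with 1 library each, was used as the authors deposited it. Sequencing gave single reads of 50 bases from TruSeq libraries, per the labels' protocols. The submitters' processing notes name the build mm10 and the tools DESeq2 1.2.10, bedtools 2.17.0, STAR 2.3.0e and FastQC 0.11.2, without saying what each did. Values in the deposited table are a signal, namely the reads of a gene over its library's size factor. Divided by the smallest value above 0 in each library (0.914 in GFP, 1.01 in MHC, 1.13 in NEG), 100% of values came out whole within 0.01. With 1 library per population, a count model of these reads has no residual degrees of freedom, so none was fitted and it calls no gene.

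Ratios were taken on the log2(value + 1) scale over the whole table with Python 3.11.15, pandas 2.3.3 and scipy 1.17.1. A member is called uncertain where an overlapping gene has 25% or more of its reads, since reads in shared stretches appear in both genes. Exon lengths are from GENCODE M21. Promoter windows came from RefSeq, and the bases after the start of those printed occur in M21 transcripts. Proteins were not used here, and 1 low member is not reported here. Reads are not independent molecules, so intervals and the 3-read floor cover counting error only. The members, lists and rules were chosen with earlier results of these data known. Every measured member is described, and list genes are named by size of difference, at most 3 in each direction and pair, besides label checks and defining markers. Members under 10 in every library, Il1b, Rela, Nfkb1, Relb, Nfkb2, the G-protein subunits and overlapping genes were named after their values were seen.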

Additional observations from a re-analysis of the deposited data

How the results depend on the processing

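With 1 library per population, leaving out a library was not possible, and no paired analysis was possible because no test was made. Scaling by total reads moved the GFP ratios up by 0.17 on the log2 scale against both other libraries, and no called member changed sign under any alternative run. Ackr3 and Cxcl10 then passed 2-fold in GFP over MHC (10 higher in place of 8). Stricter settings left fewer members. With a value of 100 or more required in the higher library, 3 members were lower in GFP than in MHC, 2 lower in GFP than in NEG, 3 higher in MHC than in NEG and 1 lower. Where the mean had to reach 100, 5 members were higher and 3 lower in GFP than in MHC, and 3 were higher in MHC than in NEG. At 4-fold, 2 were higher in MHC than in NEG and 0 lower. Fewer qualifying genes are part of how these settings are built. Without overlapped members, 7 were higher and 6 lower in GFP than in MHC. Subtracting the reads of all overlapping genes, an alternative chosen after seeing the data, gave the same 7 and 6. It sets any gene nested in a larger one, such as Ccl2, to 0. Depth limits the genes with few reads, such as Ccl8, Ccl20, Ccl17 and the low receptors.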
